A study of Mus musculus with 4 samples.

Results

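Of the Ifitm genes of the mouse, 6 (Ifitm1, Ifitm2, Ifitm3, Ifitm5, Ifitm6 and Ifitm10) were examined in single cells sorted from mouse femurs with and without marrow ablation. Ifitm7, also among the features counted, had at most 24 UMIs in the cells of a library and was not followed. The members were picked by gene symbol from the 28006 features counted, and all 6 were found. The family itself was chosen on values of these same libraries, namely the level of each gene in the cell classes and the lower Ifitm1 of reticular-like cells after ablation. Those values are therefore given as a description with no test, and of the members only measures that the choice did not use were tested. The lists of other genes followed beside them were chosen with earlier results of these data known. All mice carried Cxcl12-iCreER; R26R(tdTomato/+), in which a tamoxifen-inducible Cre recombinase under a Cxcl12 bacterial artificial chromosome turns on tdTomato, and all received tamoxifen 7 days before the operation. In the ABL group the right femoral marrow was ablated mechanically with an endodontic instrument. The CONT group was the untouched left femur, so that both groups share genotype, tamoxifen and, by design, animals. Cells positive for tdTomato were sorted 7 days after ablation. Each group had 2 libraries, numbered replicate 1 (10x Chromium v2, pooled from 7 mice) and replicate 2 (Chromium v3), and the chemistry cannot be told apart from the replicate.

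IFITM proteins are small membrane proteins. IFITM1, IFITM2 and IFITM3 are induced by interferons and restrict the entry of enveloped viruses at the plasma membrane and in endosomes. IFITM5, also called BRIL, is a membrane protein of osteoblasts that binds the prolyl isomerase FKBP11, and a mutation of the human gene causes osteogenesis imperfecta type V. Ifitm6 is a rodent gene of the same cluster with a less known role, and Ifitm10 is a more distant member. The marrow stroma is made mainly of Cxcl12-abundant reticular cells, perivascular cells that supply CXCL12 to hematopoietic cells and can turn into osteoblasts after the marrow is injured.

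In the GRCm38 build with GENCODE M21, 5 of the 6 genes lie within 69.0 kb of chromosome 7. Ifitm5 (ENSMUSG00000025489) runs from chr7:140948958-140950291 on the minus strand, Ifitm2 (ENSMUSG00000060591) from chr7:140954837-140955987 on the minus strand, and Ifitm1 (ENSMUSG00000025491) from chr7:140967221-140969825 on the plus strand. Ifitm3 (ENSMUSG00000025492, chr7:141009586-141010770) and Ifitm6 (ENSMUSG00000059108, chr7:141015699-141017924) follow, both on the minus strand. Ifitm10 (ENSMUSG00000045777, chr7:142325837-142373753, minus strand) stands 1308 kb away. The neighbours of the cluster were searched as well. Pgghg, an enzyme gene on one side, had 167 (CONT) and 150 (ABL) UMIs in replicate 1 and 368 and 411 in replicate 2, whereas Nlrp6 had 0 to 2, Gm17387 none and B4galnt4 0 to 10. Since near-identical copies can share reads, the last 500 bases of each gene were compared with all transcripts. Of the 90-base stretches, none was shared for Ifitm1, Ifitm3 or Ifitm6, but 26.5% were shared for Ifitm2 (Gm11951, Gm45717 and Gm8865) and 34.3% for Ifitm5 (Gm45717, which overlaps both genes and is not among the counted features). At 50 bases the shares were 41.9% for Ifitm2, 40.1% for Ifitm5 (again with Gm45717 alone), 14.0% for Ifitm3, 11.8% for Ifitm1 and 0 for Ifitm6. These are shares of stretches and not of reads, so how far they affect the levels of Ifitm2 and Ifitm5 is not known.

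The 250 bases before the start of 4 of these neighbours are shown because they stand so close together while their levels differed so much between cell classes (RefSeq, GRCm38.p6, each read 5′ to 3′ on the strand of the gene, from chr7:140967826-140968075 for Ifitm1, chr7:140955962-140956211 for Ifitm2, chr7:140950244-140950493 for Ifitm5 and chr7:141016893-141017142 for Ifitm6). Capitals mark matches, on either strand, to the motifs given below.
Ifitm1: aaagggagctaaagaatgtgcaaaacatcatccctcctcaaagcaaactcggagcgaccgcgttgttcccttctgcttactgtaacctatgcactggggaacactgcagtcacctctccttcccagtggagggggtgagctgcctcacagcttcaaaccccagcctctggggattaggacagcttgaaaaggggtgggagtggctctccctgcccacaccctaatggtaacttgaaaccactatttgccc
Ifitm2: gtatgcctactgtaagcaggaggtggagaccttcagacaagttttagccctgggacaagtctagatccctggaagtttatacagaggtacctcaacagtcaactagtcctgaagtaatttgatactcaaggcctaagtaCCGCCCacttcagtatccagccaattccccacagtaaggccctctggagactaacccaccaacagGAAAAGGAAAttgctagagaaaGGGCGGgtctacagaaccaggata
Ifitm5: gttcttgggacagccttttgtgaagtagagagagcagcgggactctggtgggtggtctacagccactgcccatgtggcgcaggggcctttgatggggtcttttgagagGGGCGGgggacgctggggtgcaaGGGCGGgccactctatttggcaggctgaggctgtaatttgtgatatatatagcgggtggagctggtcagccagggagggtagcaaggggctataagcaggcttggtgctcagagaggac
Ifitm6: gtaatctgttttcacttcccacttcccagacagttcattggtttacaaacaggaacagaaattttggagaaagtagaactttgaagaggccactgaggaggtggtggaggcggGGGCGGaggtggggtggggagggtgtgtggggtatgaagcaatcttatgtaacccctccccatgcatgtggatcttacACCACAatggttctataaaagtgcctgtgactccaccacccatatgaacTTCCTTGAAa

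Letters searched on both strands of windows from 250 bases before to 50 after each RefSeq start were GAAA and GAAA with any 2 bases between them, the core of the interferon-stimulated response element (ISRE, in 3.45% of all 32544 windows), TTCNNNGAA, the interferon-gamma activated site (GAS, 8.33%), TTGCNNAA of C/EBP factors (10.8%), TGTGGT of Runx factors (16.7%), GGGCGG, the GC box (35.9%), and AGAGGAAG of PU.1 (4.57%). The Ifitm2 window held the ISRE letters GAAAAGGAAA 46 bases before the start, with GC boxes 111 and 24 bases before it. In Ifitm3 the ISRE letters stood 3 bases after the start (GAAAAGGAAA) and 20 bases after it (GAAACCGAAA), and the second of these overlaps the GAS letters TTCTGAGAA that begin 14 bases after the start. Ifitm6 held the GAS letters TTCCTTGAA 10 bases before the start, the Runx letters 59 bases before and a GC box 137 bases before, and Ifitm5 held GC boxes 142 and 119 bases before. None of the 6 motifs was found in the Ifitm1 window, and neither the C/EBP nor the PU.1 letters were found in a window of any member. The RefSeq starts used for Ifitm1 and Ifitm6 lie inside the GENCODE spans of these genes, which have 3 transcripts each. The bases before the outer 5′ ends of those spans were not searched. These are matches of letters in a window and nothing was measured about binding.

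After filters on genes, mitochondrial share and UMIs, 3433 (CONT) and 1459 (ABL) cells of replicate 1 and 2404 (CONT) and 2537 (ABL) cells of replicate 2 were used, with median depths between 5714 and 12895.5 UMIs per cell. Levels are CPM, the UMIs of a gene summed over the cells of a class and a library, divided by all UMIs of those cells and scaled to 1000000, with exact 95% Poisson intervals that cover counting error only. Classes were named "X-like" from marker genes. Although the labels call the cells mesenchymal, classes of blood cells made up 2003, 747, 325 and 613 cells, against 1295, 692, 2000 and 1808 in mesenchymal classes, where the order, used throughout, is CONT, then ABL, first for replicate 1 and next for replicate 2. The paper reports that myeloid, lymphoid and erythroid clusters of this experiment showed no detectable tdTomato. Blood cell classes are therefore not read here as marked by the Cre recombinase. All 8 reticular markers were detected in the reticular-like cells of every library, at a summed 22883 to 26689 CPM. The library labelled ABL of replicate 2 stood apart from its partner. Xist, expressed from the inactive X chromosome of females, was found in 46.8%, 79.1%, 71.3% and 0.310% of reticular-like cells, and a Y-linked UMI in 30.7%, 13.7%, 27.0% and 62.2%. The 2 libraries of replicate 2 thus held different mixtures of female and male cells, which goes against a pair of femurs from the same mice, so the reticular-like results below were fitted again with Y-linked cells alone. Neutrophil-like cells were not, since ABL of replicate 1 held fewer than 10 cells with a Y-linked and no Xist UMI. CONT and ABL shared 5 cell barcodes in replicate 1 and 1 in replicate 2, where lists of their size would share 6.79 and 0.898.

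Ifitm1 was present in reticular-like cells, mature neutrophils and basophil/mast-like cells, and its level in reticular-like cells was lower after ablation in both replicates. In reticular-like cells it stood at 115 CPM in CONT (95% interval 106 to 124, 667 UMIs in 1158 cells) and 50.5 CPM in ABL (42.8 to 59.1, 153 UMIs in 402 cells) of replicate 1. In replicate 2 it stood at 94.8 CPM in CONT (91.1 to 98.7, 2453 UMIs in 1952 cells) and 21.9 CPM in ABL (16.5 to 28.5, 55 UMIs in 323 cells). Both ABL libraries thus lay below both CONT libraries, and the intervals did not overlap. The empty droplets of the same libraries held 140, 130, 99.4 and 23.1 CPM of Ifitm1, which is higher than in the cells of each library. Free RNA from such droplets was estimated, from neutrophil granule genes that stromal cells should lack, to make up 8.34%, 7.47%, 0.794% and 0.927% of the UMIs of reticular-like cells, which would give them 11.7, 9.67, 0.789 and 0.214 CPM of Ifitm1. When each cell was thinned to 2000 UMIs, 18.3%, 8.46%, 16.1% and 5.26% of reticular-like cells had an Ifitm1 UMI, and without thinning 35.3%, 23.9%, 48.9% and 11.1% at median depths of 4496, 6642, 12737.5 and 7384 UMIs. Erythroid-like cells, which were taken as a type lacking the gene, gave 1.38%, 2.76%, 0% (of 58 cells, exact 95% upper bound 6.16%) and 2.27% when thinned, and 8.74%, 11%, 3.45% and 6.82% without thinning, at median depths of 10555, 12906, 23412.5 and 18352.5 UMIs.

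Fitted across all genes of the reticular-like sums with edgeR and the replicate as a block, the log2 difference of Ifitm1 (ABL minus CONT) was −1.72 ± 0.25 (SE, n = 2 libraries per group), and fitted within a replicate it was −1.32 in replicate 1 and −2.16 in replicate 2. This contrast chose the gene, and no p-value is given. Of the 6 members, Ifitm1, Ifitm2, Ifitm3 and Ifitm6 passed the filter on low counts in these sums, and Ifitm5 and Ifitm10 did not. The clusters split the same counts that chose the gene. Their values are a description and no separate support for the difference. The 4 reticular-like clusters of replicate 1 ranged from 90.2 to 134 CPM in CONT and from 27.6 to 80.3 CPM in ABL, and in each of the 4 the ABL value was the lower one. In replicate 2, each of the 7 clusters was likewise lower in ABL. The 2 with the most ABL cells went from 124 to 29.0 CPM (119 ABL cells) and from 60.8 to 36.9 CPM (73 ABL cells), and 2 of the smaller ones had no Ifitm1 UMI in ABL.

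The mixture of female and male reticular-like cells differed between CONT and ABL in both replicates, but in opposite directions. The share of cells with Xist was higher in ABL of replicate 1 and lower in ABL of replicate 2. Among reticular-like cells with a Y-linked but no Xist UMI, Ifitm1 stood at 127 CPM in CONT (110 to 146, 295 cells) and 119 CPM in ABL (81.3 to 168, 43 cells and 32 UMIs) of replicate 1, and these intervals overlap. In replicate 2 the same cells had 58.0 CPM in CONT (52.3 to 64.2, 486 cells) and 20.3 CPM in ABL (14.0 to 28.5, 200 cells). Among cells with an Xist but no Y-linked UMI, replicate 1 had 100 CPM in CONT (88.1 to 114, 481 cells) and 42.2 CPM in ABL (34.5 to 51.1, 306 cells), and replicate 2 had 110 CPM in CONT (106 to 115, 1349 cells) and too few such cells in ABL for a value. Hence the lower value after ablation was measured in female cells of replicate 1 and in male cells of replicate 2, but not in the few male cells of replicate 1. With Y-linked cells alone, the fitted log2 difference was −0.96 ± 0.32 (SE), and the part of the animals' sex in the difference over all cells was not tested further.

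**Figure D1:**
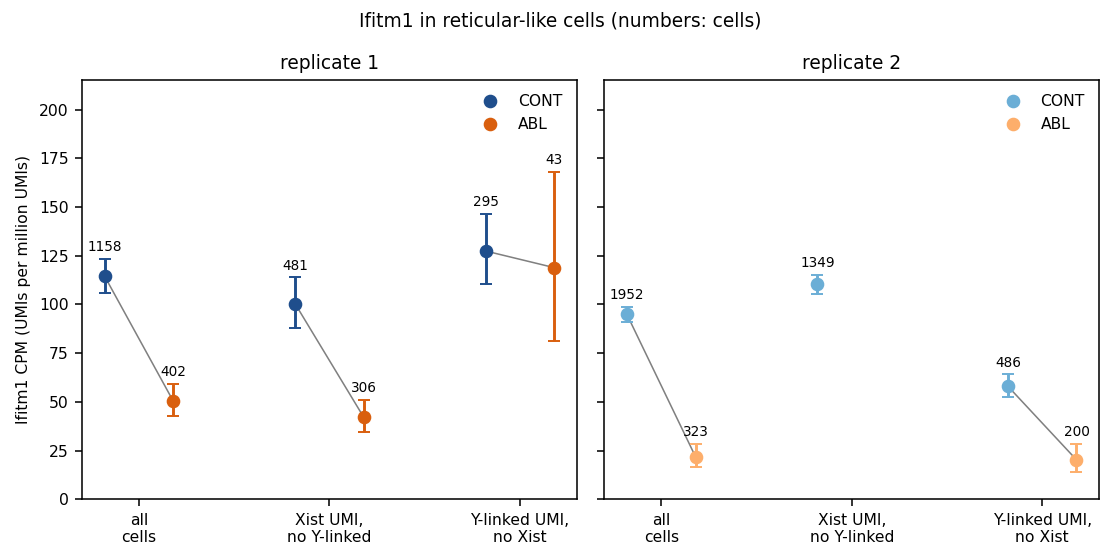
Ifitm1 in reticular-like cells, in CPM on the vertical axis, with replicate 1 and replicate 2 in separate panels, for all cells, cells with an Xist but no Y-linked UMI, and cells with a Y-linked but no Xist UMI. Points are libraries with exact 95% Poisson bars, lines join CONT and ABL, and the numbers give cells. Over all cells the level was 115 and 50.5 CPM in replicate 1 and 94.8 and 21.9 CPM in replicate 2, whereas the bars of Y-linked cells of replicate 1 overlap.

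Mature neutrophil-like cells had more Ifitm1, with 568, 705, 588 and 127 CPM. In replicate 1 the ABL interval (624 to 793) lay just above that of CONT (521 to 617), and in replicate 2 it lay far below (88.6 to 177 against 526 to 656), so that the replicates moved in opposite ways. The ABL value of replicate 2 rested on 35 UMIs in 45 cells, 19 of them from 1 cell. Immature neutrophil-like cells had 18.6, 20.9, 11.6 and 18.1 CPM. Basophil/mast-like cells, histamine-releasing granulocytes named in replicate 1 only, reached 1168 CPM in CONT (303 UMIs in 25 cells) and 2512 CPM in ABL (217 UMIs in 9 cells). Pericyte-like cells, the contractile cells around capillaries, had 193 and 130 CPM in 8 and 9 cells of replicate 1. In monocyte/macrophage-like cells the values were 32.9, 99.7, 0 (in 3 cells) and 0.557 CPM, but 93 of the 119 UMIs of ABL of replicate 1 came from 1 cell. Similarly, 26 of 50 Ifitm1 UMIs of erythroid-like cells in ABL of replicate 1, and 62 of 65 in ABL of replicate 2, came from 1 cell each.

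Ifitm3 and Ifitm2 were broadly present, in stromal and myeloid classes alike, and were low in lymphoid and erythroid-like cells. Ifitm3 stood at 2364, 2011, 1471 and 1784 CPM in reticular-like cells, of which free RNA was estimated to give 116, 96.0, 9.93 and 6.37 CPM (the empty droplets themselves held 1388, 1286, 1251 and 687 CPM). ABL was lower than CONT in replicate 1 and higher in replicate 2, and the fitted log2 difference was −0.08 ± 0.45 (SE, and −0.24 ± 0.59 in Y-linked cells alone), within the spread between replicates. Thinned to 2000 UMIs, 97.2%, 93.0%, 83.2% and 88.5% of reticular-like cells had an Ifitm3 UMI. Periosteal/fibroblast-like cells of the outer bone surface had 2774 and 2560 CPM in replicate 1 (8 and 11 cells) and 1150 CPM in ABL of replicate 2 (1057 cells). Among endothelial-like cells the values were 1824 CPM in CONT of replicate 1, and 679 and 1552 CPM in CONT and ABL of replicate 2, of which free RNA was estimated to give 264, 9.52 and 591 CPM. For ABL of replicate 2 this estimate exceeded the measured levels of Ifitm1 and Ifitm5 (values below), so the 591 CPM is unreliable.

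Along the osteoblast lineage Ifitm3 was lower in the cells with bone matrix genes. Pre-osteoblast-like cells of replicate 1 had 1700 and 1321 CPM. Osteoblast-like cells had 324, 281, 116 and 188 CPM, of which 71.8, 83.3, 103 and 143 CPM could be free RNA by the same estimate, and chondrocyte-like cells, which make cartilage, 66.1, 88.8, 0 (1 cell) and 44.8 CPM. For osteoblast-like cells the same estimate exceeded the measured Ifitm6 (36.4, 28.1, 4.03 and 5.27 CPM estimated against 20.9, 21.4, 0 and 2.28 CPM measured). The part of free RNA in their Ifitm3 is therefore uncertain. In each library the osteoblast-like value of Ifitm3 lay below the reticular-like one.

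The monocyte/macrophage-like class held both high and low cells of Ifitm3. Its values were 3447, 1602, 518 and 353 CPM. In replicate 1, the cluster led by Ccr2, the chemokine receptor of inflammatory monocytes, had 4746 CPM in CONT (153 cells) and 4450 CPM in ABL (51 cells). The cluster led by C1q genes, complement genes of resident macrophages, had 404 CPM (23 cells) and 462 CPM (105 cells). The lower class value of ABL in replicate 1 thus went with more C1q-led and fewer Ccr2-led cells, while each cluster had a similar level in both groups. In replicate 2 an unnamed cluster led by Ccr2 and Mcpt8 had 2131 and 2814 CPM.

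Ifitm2 had 1013, 952, 532 and 716 CPM in reticular-like cells (98.9, 83.6, 4.42 and 5.38 CPM estimated as free RNA, with 1186, 1120, 556 and 580 CPM in the empty droplets), with a fitted log2 difference of 0.07 ± 0.39 (SE, and −0.15 ± 0.47 in Y-linked cells alone). As for Ifitm3, ABL was the lower library in replicate 1 and the higher one in replicate 2. Its periosteal/fibroblast-like values were 2312 and 1992 CPM in replicate 1 and 1062 CPM in ABL of replicate 2. Monocyte/macrophage-like cells had 2110, 1087, 634 and 320 CPM, and endothelial-like cells 1091 CPM in CONT of replicate 1 and 324 and 613 CPM in CONT and ABL of replicate 2. Free RNA was estimated to give 20.7%, 1.31% and 81.4% of these endothelial-like values. In ABL of replicate 2 the same estimate would give these cells 19.8 CPM of Ifitm1 and 12.1 CPM of Ifitm5. Only 0.997 CPM of each was measured there, so the 81.4% is unreliable and the part of background is not known. In osteoblast-like cells (501, 496, 348 and 423 CPM) Ifitm2 was lower than in reticular-like cells of the same library as well, but by less than Ifitm3. In erythroid-like cells both genes were low, Ifitm2 with 130, 86.4, 40.1 and 155 CPM and Ifitm3 with 130, 111, 51.2 and 75.3 CPM. T/NK-like cells had at most 86.0 CPM of Ifitm2 and 98.3 CPM of Ifitm3, in CONT of replicate 1 in either case, where free RNA was estimated to give 91.4 and 107 CPM, and B-lineage-like cells at most 253 and 202 CPM.

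Ifitm6 was highest in neutrophil-like cells, and monocyte/macrophage-like cells of replicate 1 held it too. Neutrophil-like cells, immature and mature, had 3059, 3584, 1474 and 1272 CPM and held 87.3%, 88.8%, 88.9% and 87.6% of all its UMIs in cells. After thinning, 93.5%, 95.4%, 67.4% and 83.1% of neutrophil-like cells had an Ifitm6 UMI. Reticular-like cells had 45.7, 25.1, 0.232 and 0.398 CPM, and free RNA was estimated to give 58.6, 32.4, 0.388 and 0.235 CPM of these (703, 434, 48.9 and 25.3 CPM in the empty droplets), so the reticular-like values are read as background. Their thinned shares were 9.50%, 5.47%, 0.0512% and 0%. Immature neutrophil markers moved with them, with a summed 2396, 1299, 29.2 and 19.1 CPM over 6 markers in the reticular-like cells, of which 2 were at 0 in ABL of replicate 2. Ltf, Camp and Ngp are among these markers and also among the genes that gave the free RNA estimate. The immature sums are therefore no separate support for reading Ifitm6 there as background. Mature neutrophil markers stood at 763, 437, 7.00 and 7.95 CPM.

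Monocyte/macrophage-like cells held less Ifitm6, at 884, 249, 12.9 and 0.557 CPM. Here the Ccr2-led cluster of replicate 1 had 1221 and 824 CPM and the C1q-led one 56.6 and 17.1 CPM, while the unnamed Ccr2-led cluster of replicate 2 had 387 and 409 CPM. The Ccr2-led values lay below those of the Chil3-led immature neutrophil-like clusters given next, but in some libraries close to them. Granulocyte-precursor-like cells, at the start of the neutrophil lineage, had 113, 156, 39.7 and 42.0 CPM.

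Ordered from precursor to mature, the neutrophil clusters gave each paralog another course. Ifitm6 of replicate 1 went from 113 and 156 CPM (CONT and ABL) in precursors to 1254 and 1240 CPM in the cluster led by Chil3 and Fcnb, 4368 and 5018 CPM in the one led by Ltf (lactoferrin, a protein of secondary granules), 4303 and 4714 CPM in the one led by Mmp8, and 3012 and 3315 CPM in mature cells. In replicate 2 it went from 39.7 and 42.0 CPM to 589 and 468 CPM in the cluster led by Chil3 and Camp, 2708 and 2086 CPM in the Ltf-led one, and 1304 and 1937 CPM in mature cells. Ifitm6 was thus highest at the Ltf-led stage in each of the 4 libraries.

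Ifitm1 stayed low until the last stage. In replicate 1 it had 39.5 and 14.3 CPM in precursors, 13.8 and 13.7 CPM in the Chil3- and Fcnb-led cluster, 14.5 and 13.4 CPM in the Ltf-led one, 40.4 and 61.0 CPM in the Mmp8-led one and then 568 and 705 CPM in mature cells. In replicate 2 the precursors had 77.9 and 227 CPM, the next 2 clusters 15.6 and 24.0 and then 6.84 and 9.69 CPM, and mature cells 588 and 127 CPM. The ABL library of replicate 2 departed from the others here, with more Ifitm1 in precursors than in mature cells. Its mature value rested on 35 UMIs in 45 cells, 19 of them from 1 cell. Its precursor value rested on 206 UMIs in 55 cells, 58 of them from 1 cell.

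Ifitm2 was lower in the Chil3-led clusters (512 and 550 CPM in replicate 1, 256 and 250 CPM in replicate 2) than in precursors (828 and 795 CPM, and 451 and 594 CPM) and was highest in mature cells, at 2302 and 2670 CPM in replicate 1 and 1783 and 821 CPM in replicate 2. For Ifitm3 the Chil3-led clusters were also the lowest, with 551 and 560 CPM in replicate 1 and 409 and 309 CPM in replicate 2. Its mature cells had 1643 and 1762 CPM in replicate 1 and 920 and 1178 CPM in replicate 2, close to the Mmp8-led cluster (1683 and 1433 CPM) and, in CONT of replicate 2, below the Ltf-led one (1023 CPM).

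**Figure D2:**
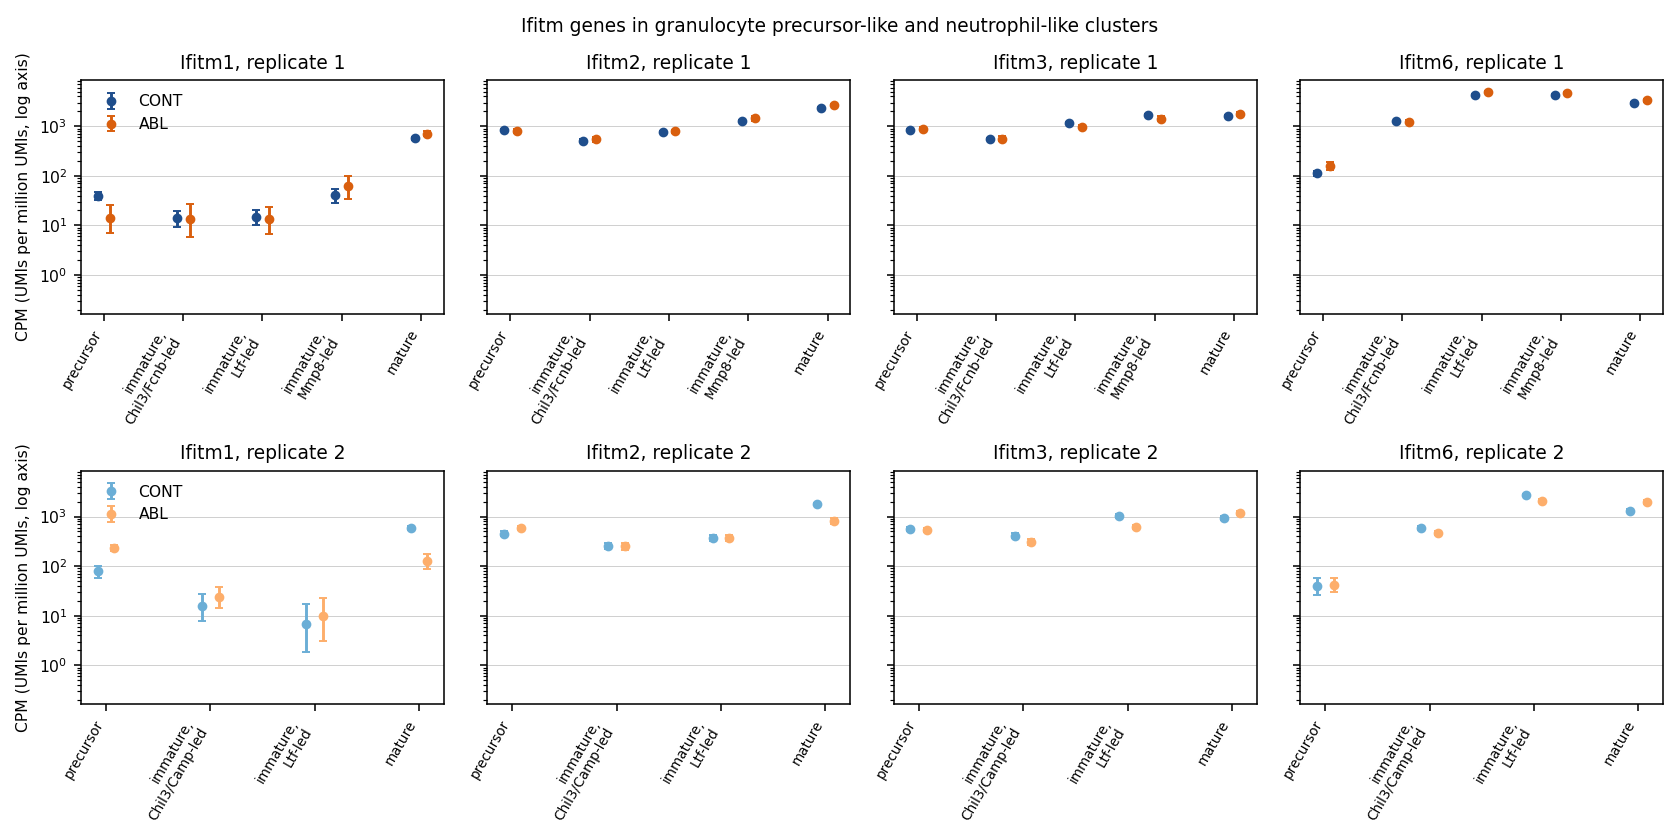
Ifitm1, Ifitm2, Ifitm3 and Ifitm6 in CPM on a log axis, by cluster from granulocyte precursor to mature neutrophil, with replicates in rows and CONT and ABL as separate points with exact 95% Poisson bars. Ifitm6 peaks in the Ltf-led clusters (4368 and 5018 CPM in replicate 1), and Ifitm1 is high only in the mature cells of 3 libraries, with ABL of replicate 2 at 127 CPM there and 227 CPM in precursors.

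The neutrophil-like sums were tested for a change with ablation, since the choice of the family did not rest on this contrast. None of the 5 members that passed the filter was called (all but Ifitm5, edgeR's quasi-likelihood test with Benjamini-Hochberg adjustment, each adjusted p 0.9999), where 0.238% of the 7136 genes tested were called, 0.168% higher and 0.0701% lower in ABL. The log2 differences were −0.67 ± 0.44 (SE, unadjusted p = 0.133) for Ifitm1, −0.24 ± 0.39 (0.548) for Ifitm2, −0.11 ± 0.38 (0.775) for Ifitm3, 0.12 ± 0.38 (0.748) for Ifitm6 and 0.29 ± 0.58 (0.623) for Ifitm10. DESeq2 called none of them either, and each difference lay within the spread between replicates. On simulated data edgeR called 0% of genes changed by 1 on the log2 scale in neutrophil-like sums. The lack of a call therefore says little about changes of that size or smaller. In replicate 2, where ABL had no neutrophil-like cell with Xist, the Y-linked cells had 185 (CONT) and 52.9 CPM (ABL) of Ifitm1, 735 and 408 CPM of Ifitm2, 565 and 577 CPM of Ifitm3 and 1281 and 1213 CPM of Ifitm6. With immature neutrophil-like cells alone (0.494% of 6483 genes called, 0.293% higher and 0.201% lower) and mature ones alone (0.0622% of 3218 genes, 0.0622% higher and 0% lower), Ifitm1, Ifitm2, Ifitm3 and Ifitm6 were again not called in edgeR's test or by DESeq2, in edgeR each with an adjusted p of 0.99999. In immature cells the difference of Ifitm1 was 0.40 ± 0.36 (SE), and in mature cells −0.71 ± 0.50.

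Ifitm5 was concentrated in osteoblast-like cells, where it stood at 647 CPM (496 to 829, 9 cells), 693 CPM (633 to 758, 60 cells), 218 CPM (122 to 359, 2 cells) and 788 CPM (731 to 849, 49 cells). These cells gave 62 of 97, 486 of 540, 15 of 48 and 693 of 931 Ifitm5 UMIs of all cells, or 63.9%, 90%, 31.3% and 74.4%, while making up 0.262%, 4.11%, 0.0832% and 1.93% of the cells. Osteoblast markers summed to 137471, 92863, 87995 and 64211 CPM there. The total of Ifitm5 UMIs was higher in both ABL libraries, as was the number of osteoblast-like cells, whereas the level per osteoblast-like cell was alike in replicate 1 and rested on 2 CONT cells in replicate 2. Thinned to 2000 UMIs, 44.4%, 56.7%, 50% and 69.4% of osteoblast-like cells had an Ifitm5 UMI.

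Outside the osteoblast-like class Ifitm5 was low. Pre-osteoblast-like cells of replicate 1 had 26.3 and 8.64 CPM, and in ABL of replicate 2 chondrocyte-like cells had 69.4 CPM (110 UMIs) and periosteal/fibroblast-like cells 6.70 CPM (104 UMIs). These UMIs came from few cells. They lay in 10 of 85 chondrocyte-like cells (25 UMIs in 1 cell) and 24 of 1057 periosteal/fibroblast-like cells (38 UMIs in 1 cell). Reticular-like cells had 1.89, 4.62, 0.773 and 1.59 CPM, from 11, 14, 20 and 4 UMIs. The empty droplets held more of it, 6.06, 33.6, 2.82 and 14.1 CPM, and free RNA was estimated to give the reticular-like cells 0.505, 2.51, 0.0224 and 0.131 CPM. Among blood cell classes the highest value was 34.7 CPM, from 3 UMIs of 1 basophil/mast-like cell, and the others were at most 10.8 CPM.

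The known partners of IFITM5 were not limited to those cells. Fkbp11, which encodes the prolyl isomerase bound by IFITM5, had 115, 318, 276 and 433 CPM in osteoblast-like cells. The tetraspanins Cd81 (303, 237, 232 and 250 CPM) and Cd9 (522, 416, 174 and 443 CPM) and the tetraspanin-binding Ptgfrn (10.4, 47.1, 58.1 and 54.6 CPM) were found there too. In reticular-like cells 2 of the 4 partners rose after ablation by edgeR's test with Benjamini-Hochberg adjustment, where 4.45% of 11398 genes were called, 2.32% higher (265 genes) and 2.12% lower (242 genes). Scaled by library size alone, 363 were higher and 171 lower, and without the replicate block none of the 11398 genes was called (314 at an unadjusted p under 0.05). Fkbp11 stood at 27.6 CPM in CONT against 53.4 in ABL of replicate 1 and at 14.9 against 38.2 in replicate 2 (log2 difference 1.05 ± 0.24, SE, edgeR adjusted p = 5.13e-04), and Ptgfrn at 42.7 against 98.3 and 47.1 against 78.7 CPM (0.87 ± 0.23, edgeR adjusted p = 0.00806). Neither passed by DESeq2, nor without the block. With Y-linked cells alone Fkbp11 rose by 1.37 ± 0.36 (edgeR adjusted p = 0.0122), and Ptgfrn did not pass (0.67 ± 0.31, edgeR adjusted p = 0.426). Cd9 (0.14 ± 0.31) and Cd81 (0.05 ± 0.34) did not pass. A list of 12 osteoblast genes held matrix genes and others, among them the transcription factors Sp7 and Runx2. Of these 12, 11 were tested and 5 rose in reticular-like cells, namely Bglap (3.59), Bglap2 (3.35), Col1a1 (2.94), Sp7 (2.67) and Alpl (2.36 on the log2 scale), and Phex fell by 0.87. The same 6 were called in the same direction with Y-linked cells alone, Sp7 with 1.72 and Phex with −1.23. No pre-osteoblast-like cells were named in replicate 2, and Sp7 and Alpl are among the markers of that class. Whether such cells lay in the reticular-like sums of replicate 2 was not tested. Osteoblast-like cells were more numerous in ABL, and 4 of the 6 genes of this list tested in neutrophil-like cells rose as well. The 4 that rose are bone matrix genes, which that class should lack. The partners and the osteoblast genes were listed with earlier results of these data known.

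Ifitm10 was scarce, with 61, 20, 7 and 161 UMIs in all cells. T/NK-like cells had 49.1, 45.1, 84.0 and 35.0 CPM, but these came from 4, 3, 4 and 13 UMIs. Chondrocyte-like cells of ABL of replicate 2 had 20.2 CPM (32 UMIs), endothelial-like cells of CONT of replicate 1 also 20.2 CPM (9 UMIs), and periosteal/fibroblast-like cells of ABL of replicate 2 had 5.67 CPM (88 UMIs). Neutrophil-like cells had 6.24, 5.34, 1.08 and 3.89 CPM. In reticular-like cells 0.172 and 0.0387 CPM were measured in CONT, and no UMI in ABL, where 3 counts would be 0.99 and 1.19 CPM, so a difference was not detectable at this depth.

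**Figure D3:**
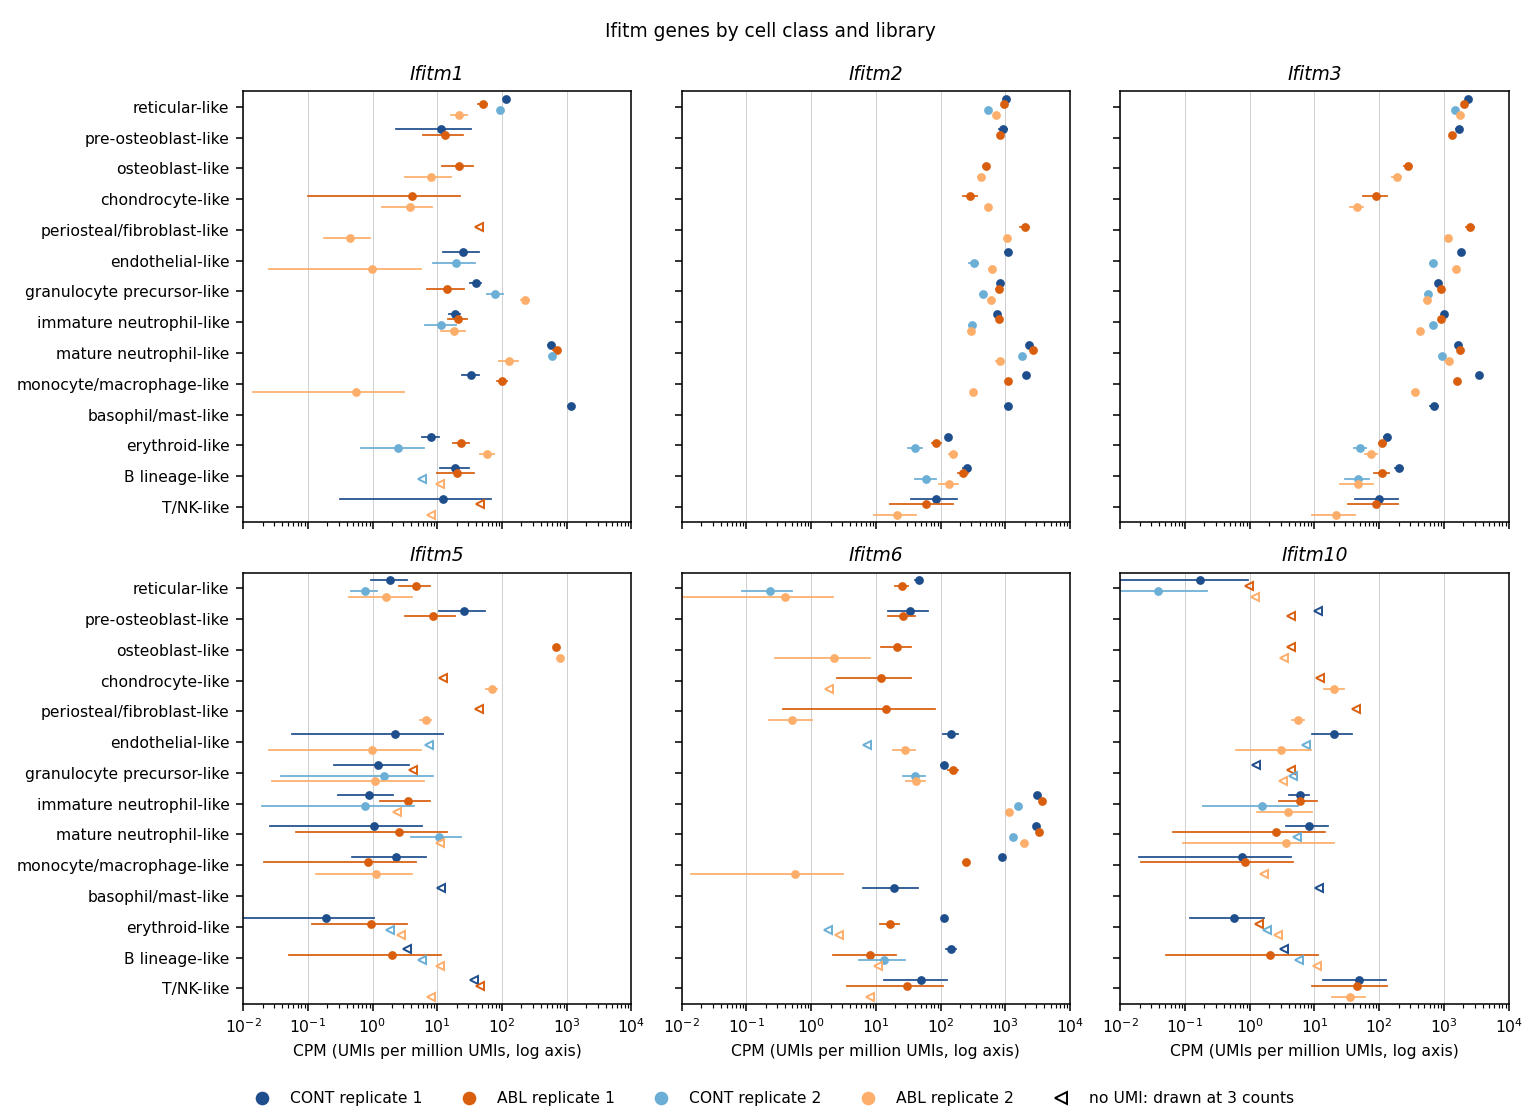
Level of each of the 6 Ifitm genes, in CPM on a log axis, in each "-like" class with at least 10 cells in a library. Dots are the 4 libraries with exact 95% Poisson bars, and open triangles, drawn at 3 counts, mark a library with no UMI. Ifitm6 is highest in neutrophil-like cells and Ifitm5 in osteoblast-like cells (693 and 788 CPM in the ABL libraries), while Ifitm2 and Ifitm3 spread over stromal and myeloid classes.

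The contrast between classes within a library was summarised on the log2(CPM + 1) scale, as a description. Neutrophil-like minus reticular-like cells gave 8.30 ± 2.05 (SD, n = 4 libraries) for Ifitm6, higher in 4 of 4 libraries, and −1.16 ± 0.34 for Ifitm3, lower in 4 of 4. For Ifitm1 the difference was 0.77 ± 0.73, higher in 3 of 4 libraries, and for Ifitm2 −0.03 ± 0.60, higher in 2 of 4. Osteoblast-like minus reticular-like cells gave 7.60 ± 0.92 for Ifitm5 over the 2 ABL libraries, and T/NK-like minus reticular-like cells 5.37 ± 0.18 for Ifitm10 over 3 libraries. In those 3 libraries reticular-like cells held at most 1 Ifitm10 UMI. The size of that difference thus depends on the added 1 CPM, and its SD does not show precision.

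Over 45 sums of a class and a library, the genes with the most similar pattern were sought among 8239 genes by correlation of log levels, a description in which sums share libraries and depth. Ifitm2 and Ifitm3 were most like each other among the members (r = 0.87), and both were like Cebpb, a transcription factor of myeloid cells (0.83 and 0.86). Ifitm6 was most like Mcemp1, Wfdc21 and Cd177 (0.97, 0.95 and 0.95), the last a surface protein of neutrophils, and Ifitm5 like Kcnk1, Prss35 and Lpar3 (0.96, 0.95 and 0.95). For Ifitm1 the likeness was weaker, with Osm, Sirpb1b and Il1b at 0.72, 0.68 and 0.68. Ifitm10 went with Cd247, a chain of the T cell receptor complex, Il2rb and Ctsw (0.84, 0.83 and 0.83).

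Because IFITM1, IFITM2 and IFITM3 are products of interferon-stimulated genes, a list of 40 such genes other than the members was followed in the reticular-like cells, of which 39 were found and 37 tested. The list was chosen with earlier results of these data known, so its shares are a description and no test of the list. After ablation 8 rose (21.6% of those tested, against 2.32% of all genes), 1 fell (2.70%, against 2.12%) and 28 did not pass edgeR's test, and the median log2 difference was 0.44, against −0.01 over all genes tested. In 26 of the 37 the ABL value was higher in both replicates, in 3 it was lower in both, and in 8 the replicates went in opposite directions. Hence Ifitm1 was lower after ablation while several genes of the list were higher. In replicate 1 Ifi27l2a had 16.3 (CONT) and 22.4 CPM (ABL), and 0.773 and 27.4 CPM in replicate 2 (log2 difference 2.38 ± 0.32, SE, edgeR adjusted p = 3.66e-11). Ifit1, which binds foreign RNA, went from 11.5 to 27.4 and from 11.8 to 47.7 CPM (1.58 ± 0.25, edgeR adjusted p = 5.98e-08). Irf7, the transcription factor that amplifies interferon production, went from 27.8 to 48.8 and from 19.0 to 92.3 CPM (1.49 ± 0.24, edgeR adjusted p = 4.52e-08).

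Among the rest, Isg15, a ubiquitin-like modifier, went from 89.6 to 167 and from 73.9 to 270 CPM (1.29 ± 0.27, edgeR adjusted p = 1.58e-04), Ifit3 by 1.12 ± 0.31 (adjusted p = 0.0126) and Usp18, which removes ISG15, by 1.11 ± 0.35 (adjusted p = 0.0340). Gbp3 and Rtp4 also rose. Cxcl10, a chemokine that draws T cells, was the gene that fell, from 80.9 to 10.2 and from 181 to 46.5 CPM (−2.48 ± 0.27, edgeR adjusted p = 5.80e-17). The count of 8 depended on the fit, since without the replicate block, or with any 1 library left out, none rose, and 3 rose by DESeq2. With Y-linked cells alone 8 of 33 rose (24.2%, against 1.25% of the 9450 genes tested) and none fell (against 0.899%). The 6 genes given with values above were among them (1.49 to 2.87 on the log2 scale), but Gbp3 was not (edgeR adjusted p = 0.0582), and Cxcl10 no longer passed (−0.80 ± 0.33, edgeR adjusted p = 0.297). None of 16 interferon signalling genes (receptors, kinases and transcription factors) was called over all reticular-like cells by edgeR or DESeq2, with 4 at an unadjusted p under 0.05 and a median of −0.15. With Y-linked cells alone Jak2 was called, lower in ABL (−1.36 ± 0.35, edgeR adjusted p = 0.00983), and no other signalling gene was. The 5 interferon genes followed had at most 2 UMIs in any library of the reticular-, pre-osteoblast-, osteoblast-, neutrophil-, monocyte/macrophage-, endothelial- and periosteal/fibroblast-like classes. In T/NK-like cells and the other classes they were not examined. In neutrophil-like cells edgeR called none of the 20 interferon-stimulated genes tested (2 at an unadjusted p under 0.05, median −0.21) and none of 14 signalling genes (0 at an unadjusted p under 0.05), nor did DESeq2.

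**Figure D4:**
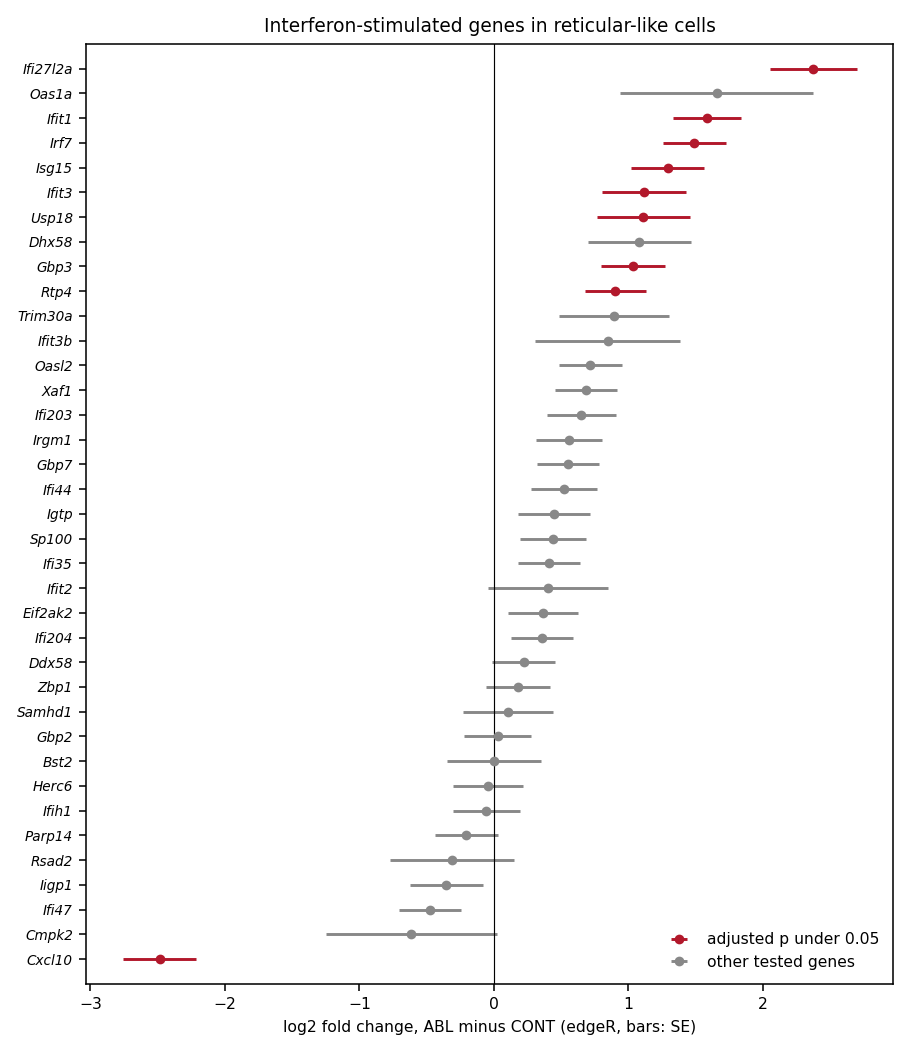
Log2 difference (ABL minus CONT, horizontal axis) with its standard error for the 37 interferon-stimulated genes tested in reticular-like cells by edgeR, red where the adjusted p was under 0.05. Red points are 8 genes to the right, led by Ifi27l2a at 2.38, and Cxcl10 to the left at −2.48.

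One small reticular-like cluster of replicate 2 (16 CONT and 13 ABL cells) was led by interferon-stimulated genes. It had 492 and 405 CPM of Ifit1, 1661 and 1477 CPM of Isg15 and 246 and 887 CPM of Irf7 in CONT and ABL. In it Ifitm3 stood at 3584 and 2470 CPM, above the 520 to 1745 CPM (CONT) and 741 to 1966 CPM (ABL) of the other reticular-like clusters of that replicate. Ifitm2 had 718 and 348 CPM, and Ifitm1 246 CPM in CONT and no UMI in ABL. The cells were in both groups, as 16 of 1952 CONT and 13 of 323 ABL reticular-like cells of replicate 2. Part of the higher level of the list in replicate 2 rested on them. Without this cluster, Isg15 went from 58.5 to 198 CPM (73.9 to 270 CPM with it) in replicate 2. Irf7 went from 16.8 to 45.1 CPM (19.0 to 92.3 CPM with it), Ifit1 from 7.11 to 26.5 CPM and Ifitm1 from 93.4 to 23.2 CPM. Of 35 genes of the list then tested by edgeR, 7 rose and 1 fell.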

How the data were processed

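The authors dissociated femurs enzymatically, without the distal growth plates and proximal ends, sorted tdTomato+ cells and deposited unfiltered matrices of UMI counts per gene and barcode (Cell Ranger, mm10, per the labels, with no versions given in the sources used here). No deposited annotation of cells was used. Total UMIs per library ranged from 22889380 to 44784072, of which 56.7% to 85.3% lay in the cells kept.

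Barcodes were kept from 500 genes upward with mitochondrial UMIs up to 20% for v2, or from 1000 genes and up to 15% for v3, as in the study. Their UMIs also had to reach the 99th percentile of the 3000 deepest barcodes divided by 10. Droplets of at most 300 UMIs gave the free RNA profile, and its share in a class was estimated from neutrophil granule genes (S100a8, S100a9, Ngp, Camp, Ltf), or for blood cells from 3 reticular genes, which can also count doublets as free RNA. Cells were clustered with Seurat 5.3.0 (2000 variable genes, 30 components, 20 neighbours, resolution 0.8, CONT and ABL integrated within each replicate), with the Ifitm genes, interferon lists and transgenes left out. Clusters were named "X-like" from fixed marker lists, with naming thresholds set after the data were seen, so classes may differ from those of the study. Scrublet (scanpy 1.11.5) marked 77, 7, 2 and 15 doublets (2.24%, 0.480%, 0.0832% and 0.591% of cells), which were kept in the main values.

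UMIs were summed per class and library. Reticular-like and neutrophil-like sums, with at least 10 cells in each library, were tested with edgeR 4.0.16 (quasi-likelihood, TMM, replicate as block, 1 value per library, Benjamini-Hochberg at 0.05). Granulocyte-precursor-like, erythroid-like and B-lineage-like cells also had at least 10 cells in each library but were not tested. Monocyte/macrophage-like cells were not tested because CONT of replicate 2 held 3. The block was taken from the design of contralateral femurs. Same-numbered libraries deviated together (r = 0.74 in reticular-like and 0.70 in neutrophil-like sums, 2 pairs). They also share the Chromium chemistry, so this cannot show that they share animals. P-values measure the spread between these 4 libraries only. On simulated data, edgeR called 38.1% of genes changed by 1 and 90.9% by 2 on the log2 scale in reticular-like sums (11145 genes), and 0% and 56.7% in neutrophil-like sums (6872 genes). R 4.3.3, DESeq2 1.42.0, limma 3.58.1, Python 3.11.15, numpy 2.4.6, scipy 1.17.1, pandas 2.3.3 and matplotlib 3.10.9 were used.

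The members and the lists (interferon-stimulated, interferon signalling, interferon genes, IFITM5 complex, osteoblast genes) were chosen with earlier results of these data known. Genes named were the members, the 3 genes most like each over log2(CPM + 10), at most 6 called genes per direction of the interferon lists, the IFITM5 complex and the neighbours. The osteoblast genes and Gbp3 and Rtp4 were named after their values were seen. Stage-wise neutrophil tests, Y-linked cells, the interferon-led cluster and single libraries left out were alternatives chosen after seeing the data.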

Additional observations from a re-analysis of the deposited data

Results flagged for a closer look

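CONT and ABL were compared in both replicates for 21 pairs of a member and a class, and in 3 cases one class was higher in ABL in both replicates while the other was lower in both. The difference between the classes was not tested in any of them. Ifitm1 was higher in ABL in immature neutrophil-like cells (log2 0.17 and 0.64 in replicates 1 and 2) and lower in reticular-like cells (−1.18 and −2.12), a mean gap of 2.06. In the immature cells, however, the CONT and ABL intervals overlapped in both replicates. Their replicate 2 values rested on 15 (CONT) and 23 (ABL) UMIs, of which 10 and 14 came from 1 cell each. Against the same reticular-like values, erythroid-like cells were higher in ABL by 1.56 and 4.58, a gap of 4.72, where 26 of 50 and 62 of 65 UMIs of the ABL libraries came from 1 cell each. Ifitm3 was higher in ABL in mature (0.10 and 0.36) and lower in immature neutrophil-like cells (−0.13 and −0.67), a gap of 0.627, where the fitted differences were 0.38 ± 0.37 and −0.30 ± 0.37 (SE).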

How the results depend on the processing

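The pairing of CONT and ABL within a replicate mattered most. Without the replicate block 0 genes were called in reticular-like cells and 0 in neutrophil-like cells (314 and 16 at an unadjusted p under 0.05), against 507 and 17 with it. In reticular-like cells DESeq2 called 157 genes and Y-linked cells alone 203. Leaving out 1 library with no block gave 0 to 13 in reticular-like (1 and 13 without CONT or ABL of replicate 1, 0 and 2 without those of replicate 2) and 0 to 11 in neutrophil-like cells (0, 11, 0 and 2), a lone library being assumed to vary like the others. Within 1 replicate there is no test. In neutrophil-like cells library size alone gave 5 calls (median of all genes −0.10), no filter on low counts 9, free RNA subtracted 5 and resolution 1.5 gave 2, while mature cells alone gave 2 and immature cells alone 32. The reasons were not tested, apart from fewer cells or genes entering.

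In reticular-like cells the difference of Ifitm1, the contrast that chose the gene, stayed negative in every alternative run, from −2.30 to −0.96. The −0.96 came from Y-linked cells alone, where the CONT and ABL intervals overlapped in replicate 1 but not in replicate 2. In neutrophil-like cells, where no member was called, signs turned only when libraries were left out, to 0.25 and 0.53 for Ifitm1 (−1.99 without replicate 1), 0.43, 0.51 and 0.18 for Ifitm2 (−0.65 without replicate 1), 0.49 and 0.29 for Ifitm3, −0.86 and −0.42 for Ifitm6, and −0.11, −0.52 and −0.26 for Ifitm10. Of the class differences (log2(CPM + 1)), neutrophil-like minus reticular-like Ifitm1 was 1.53 with the study's filter and Ifitm6 was 11.1 with free RNA subtracted, while T/NK-like minus reticular-like Ifitm10 was 4.53 with the study's filter and 5.17 and 5.47 without replicate 1 or 2. Alternatives for monocyte/macrophage-like cells were not run, for want of cells. Depth limits Ifitm10 in every class, and Ifitm5 in CONT, where 9 and 2 osteoblast-like cells were found.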
